A study of Arabidopsis thaliana with 3 samples.

Results

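The genes described here are 7 loci of Arabidopsis thaliana, chosen around the control of GRF levels: the microRNA genes MIR396A (AT2G10606) and MIR396B (AT5G35407), and the CIN-type TCP genes TCP2 (AT4G18390), TCP3 (AT1G53230), TCP4 (AT3G15030), TCP10 (AT2G31070) and TCP24 (AT1G30210). They were taken by name, as 7 of the 27978 gene identifiers that occur in the peak lists, and every peak annotated to one of them in either list is given below. Together they held 12 of the 87571 entries of the first list and 16 of the 82807 entries of the second, an entry being 1 peak paired with 1 gene and 1 region. The data are DNA affinity purification sequencing (DAP-seq), in which a purified transcription factor is mixed with sheared genomic DNA in the test tube and the recovered fragments are sequenced. Recombinant His-tagged GRF5 from Escherichia coli was mixed with root DNA of wild-type Col-0 seedlings, moved at 7 days of age to 0.2 mM nitrate for 3 days, and recovered with an antibody against GRF5. There were 2 such libraries, called replicates 1 and 2, each with its own peak list, and 1 input library of the same seedlings, labelled as control, that served as background for both lists. Protein and DNA were free of chromatin, and all libraries share genotype and nitrate level, so the peaks describe recovery of DNA and not occupancy in root cells or a response to nitrate. The series design text also speaks of a chromatin immunoprecipitation under the same library names, whereas titles and protocols of the samples describe DAP-seq, and the account here keeps to those. A pull-down without GRF5 was not analysed here, and the labels do not say whether protein and DNA were prepared anew for each replicate, so the spread between replicates may be technical.

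Growth-regulating factors (GRFs) are plant transcription factors that, with their GIF coactivators, promote cell proliferation in leaves and roots. The microRNA miR396, made from MIR396A and MIR396B, pairs with a site in most GRF mRNAs and causes them to be cut; the GRF5 mRNA itself lacks that site. CIN-type TCP proteins act the other way on growth: they end cell division and promote differentiation in leaves, and TCP4 is known to raise miR396 and so to lower GRF levels. The mRNAs of TCP2, TCP3, TCP4, TCP10 and TCP24 are themselves cut by a second microRNA, miR319. In the root meristem, miR396 and GRFs are known to oppose each other at the border between stem cells and their dividing daughters. A GRF5 peak at MIR396A, MIR396B or TCP4 would therefore lie at a gene upstream of the GRFs that carry the site. For TCP2, TCP3, TCP10 and TCP24 such a position is not assumed here.

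All 7 genes carried a GRF5 peak that was shared by both libraries, and at 6 of them the shared peak lay in the promoter as the authors annotated it. Both miR396 genes were among these 6, against 37.4% of the 326 nuclear miRNA genes with a shared promoter peak. TCP2, TCP3, TCP4 and TCP10 were the other 4 of the 5 TCP genes, against 35.2% of the 27444 nuclear protein-coding genes. TCP24 differed from them: its shared peak lay over coding exon and intron. A shared peak in any region was present at 54.4% of protein-coding genes and 38.0% of miRNA genes. Peaks count as shared when their overlap covers 50% or more of the shorter peak and each has a single partner. Counting only peaks with a −log10 q of at least 5 in each list, 4 of the 7 genes had a shared peak. A shared promoter peak was left at 3, namely 2 TCP genes and 1 miRNA gene. Of protein-coding genes, 28.2% and 16.8% had one. MIR396A, TCP2 and TCP4 lost theirs, and the share of miRNA genes at this threshold is not given. The genes were chosen with results of these data known, and no test was made on these counts.

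The peaks were weak to moderate. Fold enrichment, the authors' ratio of summit pileup, in fragments, to the local background derived from the input, ran from 1.75 to 2.38 as the mean of both libraries over the 8 shared peaks of the 7 genes, and their median was 1.91. Over all 19008 shared peaks on the 5 nuclear chromosomes the median of the same mean was 1.89, with the middle 50% between 1.74 and 2.07, and over the 10638 shared promoter peaks it was 1.89. None of the 8 reached 3-fold. The library depth is known only through the pileups, whose median over all nuclear peaks was 85 fragments in replicate 1 and 81 in replicate 2. Beside each fold enrichment below stands a 95% interval from exact Poisson counting of the summit pileup. Intervals cover counting error alone, take the background as fixed, and treat amplified fragments as independent. Coordinates are 1-based on TAIR10, with the bounds of replicate 1 unless stated.

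**Figure D1:**
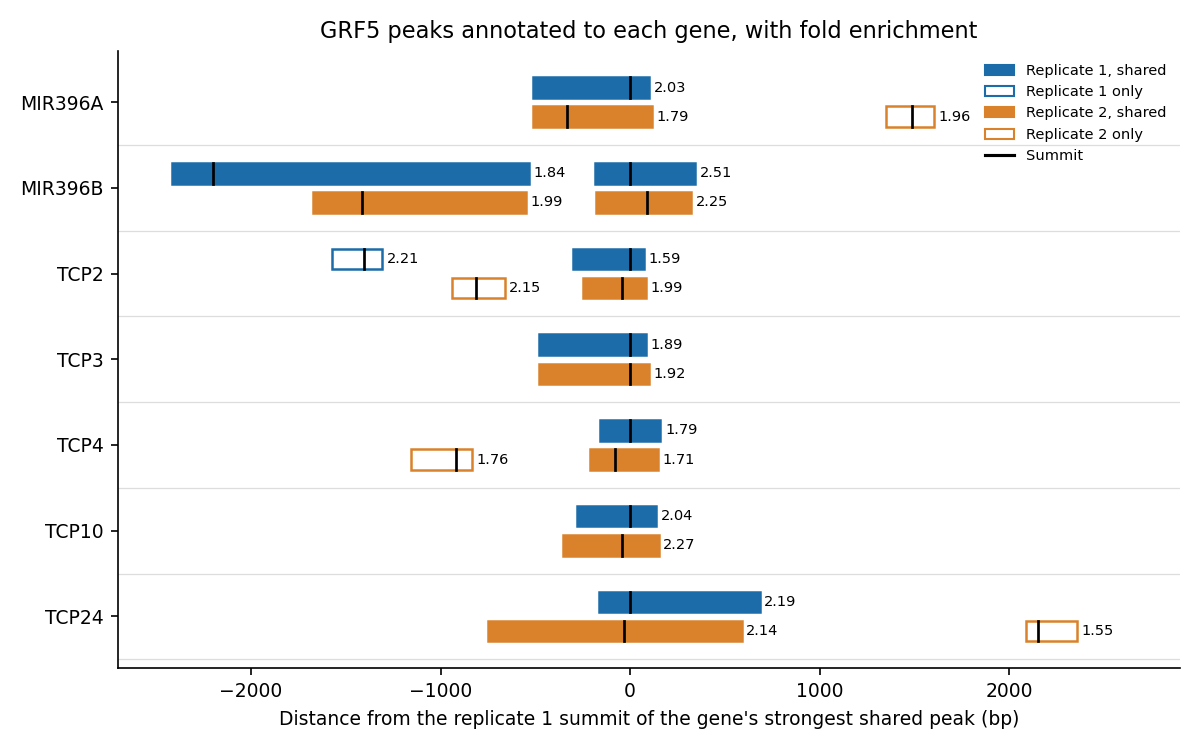
Peaks of both replicates at the 7 genes, drawn to scale along the chromosome, with 0 at the replicate 1 summit of each gene's strongest shared peak and the distance in bp on the horizontal axis; filled boxes are shared peaks, open boxes are in 1 list only, black ticks are summits, and the number beside a box is its fold enrichment. Shared boxes of TCP3 nearly coincide, while MIR396B has a pair of shared peaks and the TCP2 lists hold an open box each that do not touch.

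MIR396B had the strongest shared peak of the 7 genes and, by the overlap rule used here, was the only one of them with more than 1 shared peak. The stronger of its peaks, in the promoter on chromosome 5 from 13611121 to 13611645, reached a fold enrichment of 2.51 in replicate 1 (interval 2.04 to 3.06) and of 2.25 in replicate 2 (1.79 to 2.79). Its mean of 2.38 ± 0.18 (SD, n = 2) was above 92.4% of all shared nuclear peaks. Summits of the libraries lay 91 bp apart, and the −log10 q was 12.6 and 8.41. Among the 122 miRNA genes with a shared promoter peak MIR396B ranked 12th by its strongest peak, where the median gene had 1.94. The highest were MIR8181 with 4.87, MIR406 with 3.26 and MIR5635a with 3.06. MIR166a, of the family that silences class III HD-ZIP genes, also stood above MIR396B with 2.54. MIR172a, of the family that silences AP2-type genes, stood beside it with 2.38.

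The pileup at this MIR396B peak was 96 fragments in replicate 1 and 81 in replicate 2, and the local background was 37.7 and 35.4 fragments. In replicate 2 the pileup therefore equalled the median of all nuclear peaks, at 81 fragments. The background was low in both lists, above that of 3.17% of nuclear peaks in replicate 1 and 3.26% in replicate 2. A high fold enrichment here thus went with a low background in both libraries, and with a raised pileup, at percentile 79.7, in replicate 1. Low background was not particular to this peak. The shared MIR396A peak had backgrounds at percentiles 9.65 and 7.54 in replicates 1 and 2, with 2.03- and 1.79-fold enrichment. Backgrounds of the shared TCP2 peak stood at percentiles 10.4 and 17.7, with 1.59- and 1.99-fold. The part of the background in the result was not tested.

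The other shared MIR396B promoter peak lay 353 bp away in replicate 1, from 13608887 to 13610767, and also reached intergenic sequence. Its fold enrichment was 1.84 (1.49 to 2.25) in replicate 1 and 1.99 (1.62 to 2.42) in replicate 2, near the median of all shared peaks. The shapes differed: the peak was 1881 bp wide in replicate 1 and 1123 bp in replicate 2, from 13609633 to 13610755, and the summits lay 788 bp apart. Replicate 2 had a separate intergenic peak from 13608850 to 13609243, with 1.89-fold enrichment and a summit 127 bp from that of replicate 1. The wide replicate 1 peak also covered most of it. The replicate 1 summit, at 13609102, lay inside this separate peak and outside the replicate 2 partner. The values 1.84 and 1.99 were therefore read at different sites, and their mean of 1.91 does not describe a single site. The libraries thus divided the same stretch differently, as a single peak in replicate 1 and as a pair in replicate 2. At least 2 shared promoter peaks, as at MIR396B, were found at 14 of 326 miRNA genes (4.29%) and at 3.88% of protein-coding genes.

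MIR396A carried a shared peak over its promoter and over the miRNA gene itself, which the authors' annotation calls an exon of a non-coding gene. In both lists the peak also reached intergenic sequence. The annotation is given per peak, so it does not say which of these regions holds the summits. On chromosome 2 from 4142074 to 4142685, fold enrichment was 2.03 (1.62 to 2.5) in replicate 1 and 1.79 (1.39 to 2.26) in replicate 2, with pileups of 84 and 68 fragments and a −log10 q of 6.86 and 3.97. The bounds matched within 14 bp at each end, but the summits lay 334 bp apart, so the libraries do not single out the same base. By its mean of 1.91 it stood above 53.3% of all shared peaks and ranked 68th among the 122 miRNA genes with a shared promoter peak. Replicate 2 alone had a further MIR396A promoter peak from 4143938 to 4144187, at 1.96-fold (1.60 to 2.39) with a pileup of 98 fragments. The nearest peak of replicate 1 began or ended 817 bp from it.

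**Figure D2:**
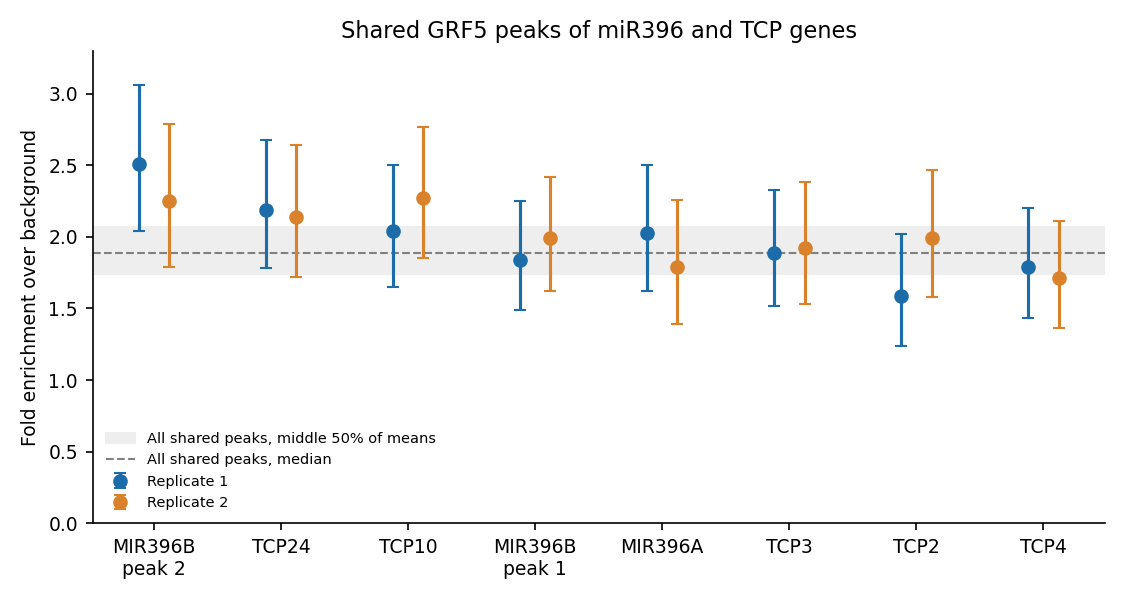
Fold enrichment of the 8 shared peaks in replicates 1 and 2, ordered by their mean; points are the deposited values, bars are 95% Poisson intervals of the summit pileup, the dashed line and grey band are the median (1.89) and middle 50% (1.74 to 2.07) of the means of all 19008 shared nuclear peaks. Intervals overlap for almost every pair of peaks, and MIR396B peak 2, TCP24 and TCP10 have means above the band.

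TCP4, which encodes the factor known to raise miR396, had the lowest mean of the 8 shared peaks. Its promoter peak on chromosome 3 from 5060854 to 5061174 had a fold enrichment of 1.79 (1.43 to 2.2) in replicate 1 and 1.71 (1.36 to 2.11) in replicate 2, with pileups of 87 and 84 fragments and a −log10 q of 5.01 and 4.15. The mean of 1.75 ± 0.057 (SD, n = 2) was above 25.5% of all shared peaks, and summits were 82 bp apart. Its pileups stood at percentiles 56.3 and 62.1 of their lists, while the backgrounds, 48.3 and 48.8 fragments, stood at percentiles 70.3 and 90.8. Replicate 2 alone had a further TCP4 promoter peak from 5059859 to 5060178, with 1.76-fold enrichment (1.41 to 2.17), 675 bp from the nearest peak of replicate 1.

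TCP3, a close relative of TCP4 in sequence and function, had the most closely matched peak. In its promoter on chromosome 1 from 19853005 to 19853570, fold enrichment was 1.89 (1.52 to 2.33) in replicate 1 and 1.92 (1.53 to 2.38) in replicate 2. The summits were 1 bp apart and the pileups 86 and 82 fragments. Neither list had another peak at TCP3, and with a mean of 1.90 it stood above 50.8% of the 9670 protein-coding genes with a shared promoter peak, close to their median.

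TCP10 had the strongest shared promoter peak of the TCP genes described here. On chromosome 2 from 13222261 to 13222679, annotated as promoter and intron of TCP10, the fold enrichment was 2.04 (1.65 to 2.5) in replicate 1 and 2.27 (1.85 to 2.77) in replicate 2. Its mean of 2.16 ± 0.16 (SD, n = 2) was above 81.7% of protein-coding genes with a shared promoter peak. Pileups were 93 and 97 fragments on backgrounds of 45.0 and 42.1. Here the pileup was thus high in both lists, at percentiles 73.3 and 89.2, while the background was nearer the middle. Summits were 45 bp apart.

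TCP24 was the exception in location. Its shared peak on chromosome 1 from 10628231 to 10629076 covered coding exon and intron, with a fold enrichment of 2.19 (1.78 to 2.68) in replicate 1 and 2.14 (1.72 to 2.64) in replicate 2. The mean of 2.17 ± 0.036 (SD, n = 2) was above 83.4% of all shared peaks, and summits were 34 bp apart, although the peak was 846 bp wide in replicate 1 and 1340 bp in replicate 2. Among protein-coding genes, 19.1% likewise had a shared peak but none in the promoter. A TCP24 peak over promoter and intron was called in replicate 2 alone, from 10630481 to 10630750, with 1.55-fold enrichment (1.21 to 1.97), a pileup of 67 fragments and a −log10 q of 2.44, the lowest values of fold enrichment and −log10 q among the 21 peaks of the 7 genes in the lists.

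TCP2 showed the largest difference between the libraries. Its shared promoter peak on chromosome 4 from 10167444 to 10167815 had a fold enrichment of 1.59 (1.24 to 2.02) in replicate 1 and 1.99 (1.58 to 2.47) in replicate 2, on pileups of 66 and 80 fragments. The background was similar in both, 41.1 and 39.8 fragments. The −log10 q was 2.67 and 6.17. Both lists also annotated this peak to the promoter of the neighbouring gene AT4G18395, which the files describe as a hypothetical protein, so it cannot be assigned to TCP2 alone.

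Each library had a stronger TCP2 promoter peak that the other did not share. In replicate 1 it lay from 10166171 to 10166434, with 2.21-fold enrichment (1.79 to 2.71) and 92 fragments. In replicate 2 it lay from 10166801 to 10167079, with 2.15-fold (1.72 to 2.67) and 82 fragments. They were 366 bp apart and their summits 591 bp apart, so that TCP2 had promoter peaks of more than 2-fold in both libraries, at different places.

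Over the 7 genes, replicate 1 had 9 peaks and replicate 2 had 12, and 8 of each were partners. Unmatched were therefore 1 of 9 in replicate 1 and 4 of 12 in replicate 2. Of all nuclear peaks, 67.0% in replicate 1 and 70.3% in replicate 2 had a partner in the same one-to-one matching. All 5 unmatched peaks were annotated to a promoter, at MIR396A, TCP2, TCP4 and TCP24, so that in replicate 2 all 7 genes had a promoter peak and in replicate 1 only TCP24 had none. In the single lists 50.3% and 48.1% of protein-coding genes had one.

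At the 8 matched peaks, replicates differed in fold enrichment by amounts usual for matched peaks of the series. The 5 unmatched peaks, among them the stronger TCP2 promoter peak of each library, do not enter this comparison. The log2 ratio of replicate 1 to replicate 2 ranged in size up to 0.32, at TCP2, and was within 1 SD of its mean over all shared peaks (SD 0.19) for 6 of the 8 peaks and within 2 SD for all of them. Fold enrichment was higher in replicate 1 at 4 peaks and higher in replicate 2 at the other 4. Summits lay within 100 bp of each other at 6 of the 8 peaks, MIR396A and the weaker MIR396B peak being the exceptions, against 65.2% of all shared peaks. At these exceptions the ratio compares summits 334 and 788 bp apart, where the median over all shared peaks was 52 bp.

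**Figure D3:**
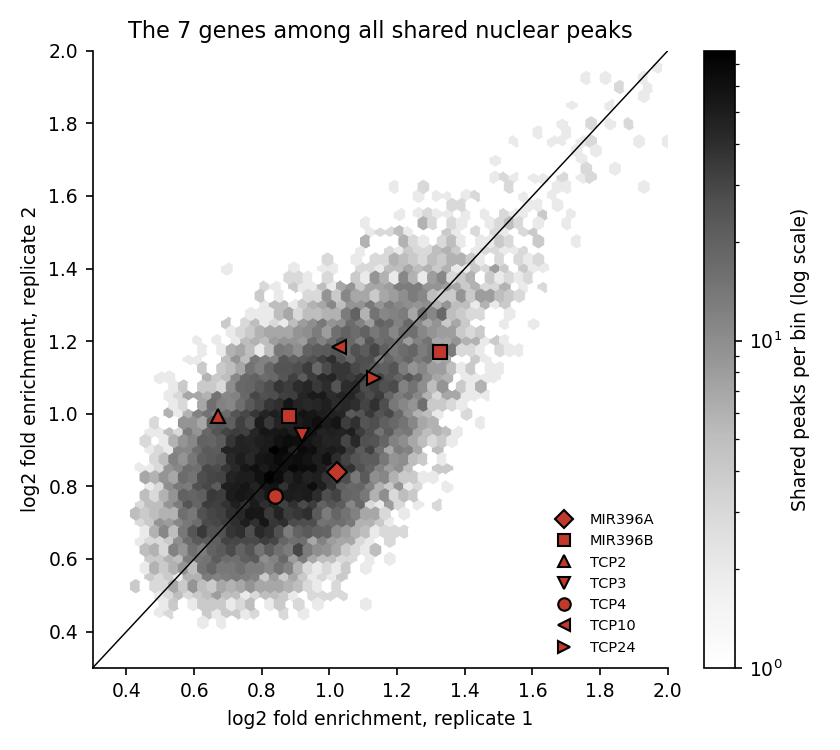
Log2 fold enrichment in replicate 1 (horizontal) and replicate 2 (vertical) of all shared nuclear peaks, as counts per bin in grey on a log scale, with the 8 shared peaks of the 7 genes in red and equality as a line; 127 peaks outside the axes are not drawn. The red points lie within the cloud, with the stronger MIR396B peak towards its upper part and TCP2 farthest from the line.

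By mean fold enrichment the order was the stronger MIR396B peak, TCP24, TCP10, the weaker MIR396B peak, MIR396A, TCP3, TCP2 and TCP4. Gaps between neighbours in this order were at most 0.17 on the log2 scale, which was the step from TCP10 to the weaker MIR396B peak. The SD that the spread between replicates gives to a difference of such means is 0.13, so neighbours could not be told apart beyond 2 SD. From first to last the gap was 0.45, which is more than 2 SD, although these are the extremes of 8 ordered peaks. Pairs other than neighbours were not compared further in this way. Of the 28 pairs of shared peaks, counting intervals were apart for 1 pair in replicate 1, the stronger MIR396B peak and TCP2, and for none in replicate 2.

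**Figure D4:**
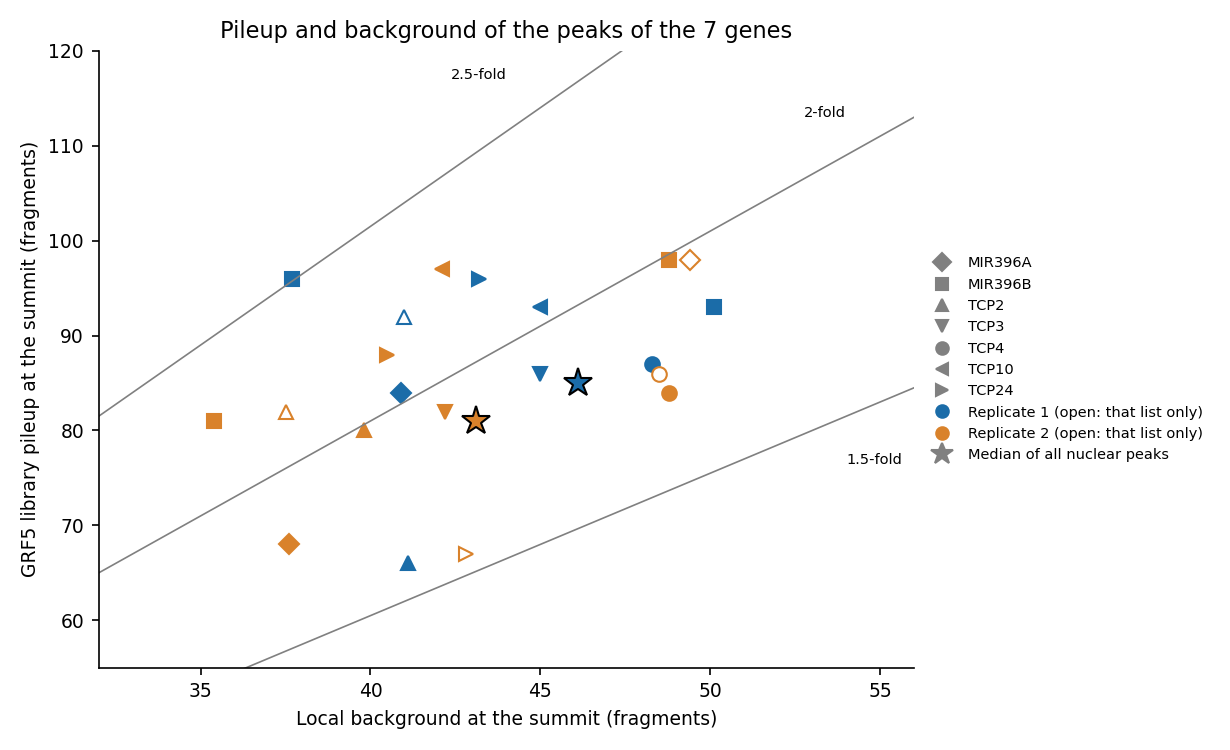
GRF5 library pileup at the summit (vertical, fragments) against the local background (horizontal, fragments) for all 21 peaks of the 7 genes, by gene (symbol) and replicate (colour); open symbols are peaks in 1 list only, stars are the median pileup and median background of all nuclear peaks in each list, and lines mark fold enrichments of 1.5, 2 and 2.5. The stronger MIR396B peak has the lowest background among these peaks within each replicate, at 37.7 and 35.4 fragments. TCP4 lies towards the right, at 48.3 to 48.8, as do the weaker MIR396B peak (50.1 and 48.8) and the MIR396A peak of replicate 2 alone (49.4).

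Over all 21 peaks the pileup ranged from 66 to 98 fragments and the background from 35.4 to 50.1. In replicate 2 the stronger MIR396B peak had 81 fragments and the shared TCP4 peak 84, on backgrounds of 35.4 and 48.8. In replicate 1 they had 96 and 87 fragments, on 37.7 and 48.3. The weaker MIR396B peak had 93 and 98 fragments in replicates 1 and 2 on backgrounds of 50.1 and 48.8, no lower than those of TCP4.

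Related genes were compared by the same counts, without a test. CIN-type TCP genes that miR319 does not cut, TCP5, TCP13 and TCP17, had no shared peak in any region, 0 of 3, whereas all 5 that it does cut had one. TCP5 had a peak in each list, but they were not shared; TCP17 had one in replicate 1 alone and TCP13 in neither. The lists are too short for this contrast to be read against the 54.4% of all protein-coding genes. Of the miR319 genes, MIR319A and MIR319B had a shared promoter peak, with fold enrichments of 1.78 and 2.14, and 1.89 and 1.95 in replicates 1 and 2. MIR319C had a peak in each list that was not shared.

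TCP genes of other clades also carried peaks. All 3 CYC/TB1-type genes, which act in shoot branching and flower form, had a shared peak, and TCP18, the branching repressor also named BRC1, had a promoter peak of 2.64- and 2.92-fold, above every peak of the 7 genes. TCP1 followed with 2.06- and 2.11-fold and TCP12 with 2.00- and 1.72-fold, the latter in coding exon and intron. Of the 13 class I TCP genes, several of which are known to promote growth, 5 had a shared peak and 3 a shared promoter peak; the strongest were at TCP15 (2.17- and 2.12-fold, coding exon), TCP14 (2.11- and 2.02-fold, promoter) and TCP16 (2.17- and 1.75-fold, coding exon). Over the 24 TCP genes together 13 had a shared peak (54.2% of them) and 9 a shared promoter peak (37.5%), close to the 54.4% and 35.2% of all protein-coding genes.

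Downstream of miR396, 4 of the 7 GRF genes that carry its site had a shared promoter peak and 5 a shared peak in any region, beside 35.2% and 54.4% of all protein-coding genes. The list is short, and these counts were not tested. GRF9 was far above all others with 8.34- and 8.64-fold enrichment. GRF3 followed with 2.33- and 2.25-fold and GRF8 with 2.05- and 2.06-fold, within the range of the 8 shared peaks described above.

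**Figure D5:**
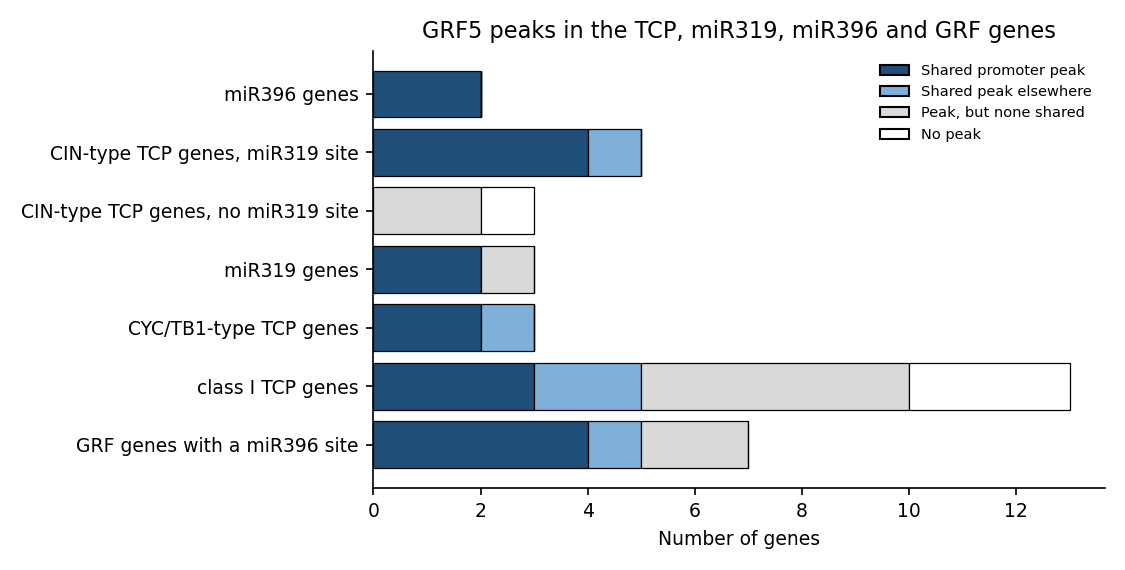
Number of genes in each group (horizontal axis) with a shared promoter peak, with a shared peak elsewhere, with peaks in 1 or both lists but none shared, or with no peak. The miR396 genes and the CIN-type TCP genes with a miR319 site have a shared peak at every gene, as do the CYC/TB1-type TCP genes, and the CIN-type TCP genes without that site at none.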

How the data were processed

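Per the submitters' processing notes, the authors used Trimmomatic 0.39 for trimming, Bowtie2 2.4.6 for alignment to TAIR10 and MACS2 2.2.7.1 for peaks. Caller settings and promoter length: not given in the sources used here. Per the file headers, the deposited values are the pileup signal at each summit, the fold enrichment (a ratio), −log10 p and −log10 q, for each replicate against the shared input.

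Entries were collapsed by position to 28349 and 27054 nuclear peaks, and 1 was added to starts. Pairs were formed one to one, longest overlap first, a step tested on simulated data. A shared peak belongs to a gene's region when both lists annotate it so. The local background, (pileup + 1)/fold enrichment − 1, was checked by the Poisson upper tail, which gave the deposited −log10 p within 0.001 at 28345 of 28345 and 27051 of 27053 peaks where the tail could be computed. Percentiles of peaks are ranks as a percent of all peaks, with tied values given their average rank. Percentages of genes are shares strictly below a value.

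Gene types came from a RefSeq table of TAIR10.1 (27953 of 27978 identifiers matched), whose coordinates were not used. Members and related lists were chosen with earlier results of these data known. All 7 genes and up to 3 genes per related list with the highest values are named. The other miRNA genes in the ranking of MIR396B, and related genes without a shared peak, were named after their values were seen. A planned promoter motif search was not run. Alternatives were other overlap rules, a stricter q and single lists. Software was scipy 1.17.1, numpy 2.4.6, pandas 2.3.3, matplotlib 3.10.9 and Python 3.11.15.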

Additional observations from a re-analysis of the deposited data

How the results depend on the processing

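With overlap of at least 1 bp, overlap of at least 90% of the shorter peak, and summits within 100 bp, in that order, 7, 6 and 6 of the 7 genes had a shared peak, against 55.1, 47.4 and 39.7% of protein-coding genes. A shared promoter peak was present at 6, 6 and 5 of the 7 genes, against 35.8, 29.8 and 24.5%. TCP24 lost its shared peak at 90% and MIR396A at 100 bp. The weaker MIR396B peak was also lost at 100 bp, so that 6 shared peaks were left and MIR396B kept only its stronger one. Shares for the alternatives are of protein-coding genes only, although 2 of the 7 genes are miRNA genes. Counting only peaks with a −log10 q of at least 5 changed the picture. A shared peak remained at 4 of the 7 genes (MIR396B, TCP3, TCP10, TCP24) and a shared promoter peak at 3. In all, 5 shared peaks were left, since MIR396A, TCP2 and TCP4 have a −log10 q below 5 in 1 list. At that threshold 28.2% of protein-coding genes had a shared peak and 16.8% a shared promoter peak. In single lists, without either replicate in turn, the count of genes with a peak stayed at 7, against 68.2 and 70.0% of protein-coding genes, that with a promoter peak was 6 to 7 and the number of peaks was 9 to 12. Fold enrichments in the single lists are those printed for each replicate. No paired analysis was possible because there is only 1 group of GRF5 libraries. With summit pileups of 66 to 98 fragments, counting intervals within a single library overlapped for nearly all pairs of the 8 shared peaks. Such overlap does not show that 2 peaks are equal, and the libraries were not combined in these intervals.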
